A study of Mus musculus with 119 samples.

Results

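The BTG/TOB genes Btg1, Btg2, Btg3, Tob1, and Tob2 were followed by RNA-seq in mouse macrophages grown from bone marrow (BMDMs). They were taken by their gene symbols, and the 5 of them were among 18098 genes with a value. A further family gene, Btg4, had 0 rows. All 5 passed the filter on low values, which left 11884 genes in the comparisons among genotypes and 11971 in those that also took in the other arms. The study asked how the kinase TPL-2, which activates the ERK1/2 MAP kinases after LPS, controls transcription through the ternary complex factors (TCFs) and FOS. LPS, a component of the Gram-negative cell wall sensed by TLR4, was given at 100 ng/ml.

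The 119 libraries formed 25 groups, all of the strain C57BL/6(NIMR), with no age in the labels. Wild-type (WT) cells gave 6 libraries each at 0, 0.5, and 1 h after LPS, and 4 at 2 h. Map3k8[D270A] cells, whose TPL-2 has no kinase activity, gave 6 at each of the 4 times. Elk1-/-Elk4-/- cells, which lack the TCFs ELK1 and ELK4, gave 4 at each time. Nfkb1[SS/AA] cells, in which the precursor p105 is not degraded on stimulation and TPL-2 is not set free, gave 6 at 0, 0.5, and 1 h. PD0325901, an inhibitor of MKK1/2, was given to WT cells at 0.1 µM, with 3 libraries each after 10, 40, and 70 min without LPS, and 6 libraries each with LPS for 0.5 or 1 h, added after 10 min of inhibitor. Its solvent DMSO gave 3 libraries, at 10 min without LPS. WT cells treated with the RSK inhibitor RSKi47 at 2 µM gave 4 libraries at 0, 1, and 2 h and 3 at 0.5 h. No group had DMSO together with LPS, and RSKi47 had no solvent control. By the labels, the WT libraries belong to 1 experiment with Map3k8[D270A], and the Elk1-/-Elk4-/-, Nfkb1[SS/AA], PD0325901, and RSKi47 libraries to an experiment each. In their comparisons with WT, the genotype or treatment and the experiment cannot be told apart.

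BTG/TOB proteins share an amino-terminal domain that binds the CAF1 deadenylases CNOT7 and CNOT8, subunits of the CCR4-NOT complex, and so bring the complex to mRNAs whose poly(A) tails are then shortened. They are known for restraining cell proliferation, and Btg1 and Btg2 for keeping lymphocytes quiescent. Btg2 is an immediate early gene and a p53 target, and the TOB proteins also bind poly(A)-binding protein and SMADs.

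Values are the deposited log2 values, whose transformation is not stated, so that differences may have been drawn together and are not read as fold changes. Unless stated otherwise, tests are limma's with Benjamini-Hochberg adjustment over all genes tested, and a gene is said to have changed at an adjusted p below 0.05. Libraries carried the macrophage markers Lyz2 (group means 17.53 to 18.52) and Cd68 (15.26 to 15.50), and of 5 T cell markers Cd3d, Cd3e, and Cd3g lay below 0 in every library while Cd4 had group means of 7.54 to 8.41. Library medians over the genes tested ran from 7.01 to 7.22. In Elk1-/-Elk4-/- libraries Elk1 was 6.17 to 6.59 and Elk4 5.51 to 5.88, against 9.04 to 9.49 and 7.57 to 8.49 in WT. The D270A change leaves the Map3k8 mRNA in place, so its level does not check that label. The summed level of 8 neutrophil markers was 10.04 to 11.04 in Elk1-/-Elk4-/- libraries and 6.24 to 7.74 in WT, with group means of -0.24 to 0.39 for Ly6g and -0.14 to 0.44 for Elane over all groups. The summed level of 4 fibroblast markers was 5.04 to 9.41 with RSKi47 and 3.91 to 4.90 in WT. Fewer cells of a type and less RNA per cell cannot be told apart in such bulk libraries.

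Per kilobase of transcript, unstimulated WT cells held Btg1 at 10.15 on the log2 scale, Btg2 at 9.05, Tob2 at 7.73, Tob1 at 7.18, and Btg3 at 4.84. Without LPS Btg1 thus had the highest level per length and Btg3 the lowest. At 0.5 h of LPS Btg2 stood above Btg1, at 11.90 against 10.73 per kilobase, and at 1 h Btg1 was again above Btg2, at 11.47 against 10.82. Btg1 has 2 annotated pseudogene copies in GENCODE vM21, neither of which had a value here, and reads from them could have been counted for Btg1.

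The 5 genes lie on different chromosomes of GRCm38.p6 (mm10): Btg1 at chr10:96617001-96622813, Btg2 at chr1:134074865-134079155, Btg3 at chr16:78359860-78377181, Tob1 at chr11:94209842-94215495, and Tob2 at chr15:81848270-81858326. The 250 bases before the start of Btg2, Btg1, and Tob1, from RefSeq on GRCm38.p6, are shown because each held a match to the CRE core site described next, and because Btg2 and Btg1 were highest at different times of LPS. Each reads 5′ to 3′ on the gene's own strand, which is the minus strand for Btg2 (chr1:134079156-134079405) and the plus strand for Btg1 (chr10:96616751-96617000) and Tob1 (chr11:94211204-94211453). The Tob1 window lies inside the span given above, which covers 2 RefSeq transcripts, and precedes the start of only 1 of them. The capitals mark every match found to the motifs searched.
Btg2: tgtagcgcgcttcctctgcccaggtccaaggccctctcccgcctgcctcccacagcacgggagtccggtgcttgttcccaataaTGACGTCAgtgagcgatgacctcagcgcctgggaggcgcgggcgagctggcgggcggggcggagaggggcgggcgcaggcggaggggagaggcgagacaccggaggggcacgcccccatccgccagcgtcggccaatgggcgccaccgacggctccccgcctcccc
Btg1: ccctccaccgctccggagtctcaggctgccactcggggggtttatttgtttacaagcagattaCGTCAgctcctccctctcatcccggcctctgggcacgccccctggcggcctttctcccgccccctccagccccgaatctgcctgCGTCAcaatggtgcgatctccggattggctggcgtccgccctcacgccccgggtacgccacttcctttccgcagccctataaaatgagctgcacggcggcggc
Tob1: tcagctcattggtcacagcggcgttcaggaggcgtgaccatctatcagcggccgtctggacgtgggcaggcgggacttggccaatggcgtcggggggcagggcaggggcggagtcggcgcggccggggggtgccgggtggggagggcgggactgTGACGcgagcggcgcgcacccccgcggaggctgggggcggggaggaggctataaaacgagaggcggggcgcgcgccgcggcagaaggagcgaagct

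The motifs were sought on both strands: the CArG box bound by SRF, the ETS core CCGGAA, the AP-1 site TGANTCA, the CRE core site TGACG, the NF-kB site, and the p53 element. The capitals are CRE core sites, read as CGTCA where they lie on the other strand. In Btg2 a plus-strand match 166 to 162 bases before the start and a minus-strand match 163 to 159 bases before it overlap and form 1 palindrome. Btg1 had minus-strand matches 187 to 183 and 103 to 99 bases before the start, and Tob1 a plus-strand match 96 to 92 bases before the start used. The CRE core was in 17.8% of 32851 promoter windows of the same length. The window of Tob2 and the first of 2 windows of Btg3 held no match to any of the motifs, and the second window of Btg3 held an NF-kB match 75 to 66 bases before its start. None of the windows of the 5 genes matched the CArG box (1.47% of all windows), the ETS core (12%), the AP-1 site (6.75%), or the p53 element (7.13%), which says only that these letters are not in these windows.

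In WT cells Btg2 was highest at 0.5 h of LPS and Btg1 at 1 h, and Tob1 and Tob2 rose less than either at both times. At 0.5 h, 4 of the 5 genes rose, in a comparison in which 11.6% of 11884 genes changed. At 1 h 4 of 5 rose, with 46.8% of genes changed, and at 2 h 2 rose and 2 fell, with 71.5% of genes changed. Btg3 passed the test at none of these times.

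Btg2 was 10.42 to 10.57 in the 6 unstimulated WT libraries, with a median of 10.497. It was 13.14 to 13.58 at 0.5 h (median 13.35) and 12.11 to 12.37 at 1 h (median 12.29). At 2 h the 4 libraries held 9.97, 10.01, 10.07, and 9.93. The 4 groups did not overlap, and every library at 2 h was below every unstimulated one. Btg2 rose by 2.85 at 0.5 h (SE 0.06, adjusted p = 2.95e-41), the 16th largest difference among all genes tested. It was 1.77 above the unstimulated level at 1 h (adjusted p = 2.60e-32), and at 2 h it fell by 0.51 (adjusted p = 1.54e-09). From 0.5 to 1 h it had already dropped by 1.08 (adjusted p = 2.30e-22), one of 2 of the 5 genes that changed in that interval, in which 40.3% of genes changed. Among WT libraries, replicates 4 to 6 held 13.14 to 13.22 at 0.5 h and replicates 7 to 9 held 13.49 to 13.58.

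Btg1, the member with the highest level without LPS, was 12.29 to 12.68 without LPS (median 12.48). It was 12.92 to 13.31 at 0.5 h (median 13.03) and 13.45 to 14.04 at 1 h (median 13.85). At 2 h it was 12.93, 12.98, 13.06, and 12.96. Each LPS group lay above the unstimulated group without overlap, with the highest libraries at 1 h. Btg1 rose by 0.58 at 0.5 h (SE 0.08, adjusted p = 2.13e-08), by 1.32 at 1 h (adjusted p = 3.24e-22), and by 0.51 at 2 h (adjusted p = 3.42e-07). The value at 2 h rested on the scaling between libraries: with quantile normalization it was 0.09 (adjusted p = 0.320).

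**Figure D1:**
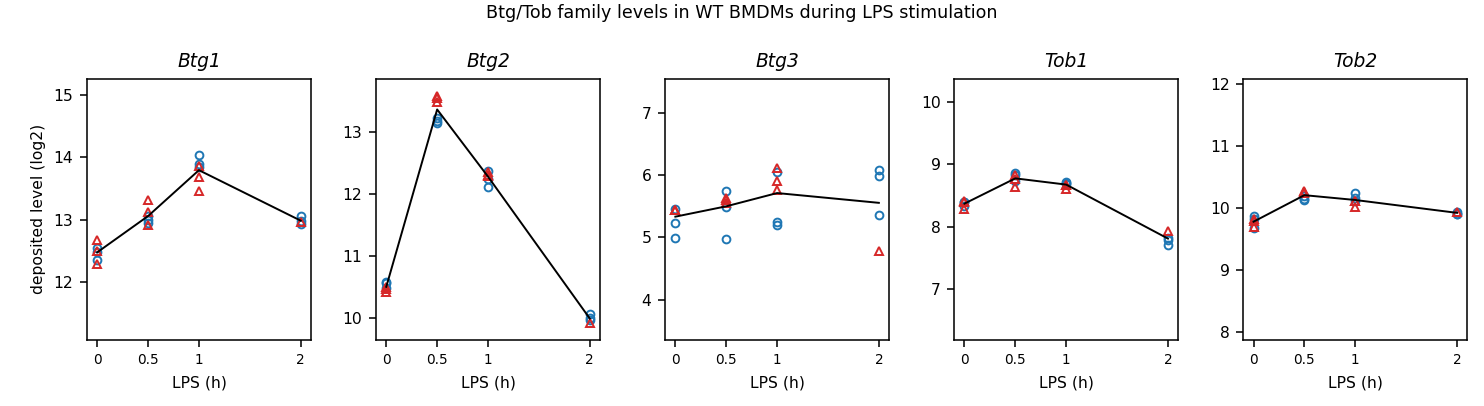
Deposited log2 value (vertical axis, the same height in log2 units in each panel) of each of the 5 genes against hours of LPS (horizontal axis) in WT libraries. Points are libraries, circles for replicates 4 to 6 and triangles for replicates 7 to 9, and the line joins group means: Btg2 peaks at 0.5 h and Btg1 at 1 h.

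The TOB genes had smaller rises. Tob1 was 8.28 to 8.40 without LPS, 8.63 to 8.86 at 0.5 h, and 8.60 to 8.72 at 1 h. At 2 h its libraries held 7.70, 7.81, 7.79, and 7.93, below all others. Tob1 rose by 0.41 at 0.5 h (adjusted p = 4.06e-07) and by 0.31 at 1 h (adjusted p = 1.42e-05), and at 2 h it fell by 0.56 (adjusted p = 5.76e-11). Tob2 was 9.69 to 9.88 without LPS, 10.13 to 10.28 at 0.5 h, 10.02 to 10.25 at 1 h, and 9.90 to 9.95 at 2 h. None of its LPS groups overlapped the unstimulated one. Tob2 rose by 0.43 at 0.5 h (adjusted p = 1.52e-10) and by 0.35 at 1 h (adjusted p = 4.23e-09). The rise of 0.14 at 2 h (adjusted p = 0.0124) was 0.13 without WT replicate 4 (adjusted p = 0.0505) and 0.04 with quantile normalization (adjusted p = 0.476).

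From 1 to 2 h, 4 of the 5 genes fell, in a comparison in which 65.3% of genes changed. Btg2 fell by 2.28 (adjusted p = 1.98e-34), Tob1 by 0.87 (adjusted p = 3.15e-17), Btg1 by 0.81 (adjusted p = 1.84e-12), and Tob2 by 0.21 (adjusted p = 4.24e-04). Btg3, the least abundant member, scattered most between replicates: its 4 libraries at 2 h held 6.08, 5.36, 5.99, and 4.79. Its differences from unstimulated cells were 0.17 at 0.5 h (95% confidence interval -0.17 to 0.51), 0.38 at 1 h (0.04 to 0.72, adjusted p = 0.0603), and 0.22 at 2 h (-0.16 to 0.60). The call at 1 h was made without WT replicate 4 (0.50, adjusted p = 0.0205) or 6 (0.46, adjusted p = 0.0257), and that at 2 h without replicate 7 (0.50, adjusted p = 0.0247).

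The partners of the family were described by lists of genes. Of 16 tested genes of the CCR4-NOT and poly(A) machinery, 5 rose at 0.5 h, 6 rose and 2 fell at 1 h, and 8 rose and 8 fell at 2 h of LPS in WT cells. Of all genes, 11.6%, 46.8%, and 71.5% changed at these times. Their median difference at 2 h was 0.01, against -0.02 over all genes. Cnot7, whose CAF1 product binds BTG/TOB proteins, rose by 0.27 at 1 h (adjusted p = 6.36e-10) and by 0.57 at 2 h (adjusted p = 3.94e-20). Its paralog Cnot8 rose by 0.14 at 0.5 h (adjusted p = 6.61e-04) and fell by 0.24 at 2 h (adjusted p = 1.38e-08). Cnot6l, a CCR4-type deadenylase, fell by 0.53 at 2 h (adjusted p = 3.75e-16). Of 4 tested genes for direct partners, Prmt1, a methyltransferase that BTG proteins bind, rose by 0.33 at 2 h (adjusted p = 5.54e-05), as did the SMAD genes Smad4 (0.32, adjusted p = 5.62e-16) and Smad5 (0.30, adjusted p = 6.24e-06), while Smad1 fell by 0.14 (adjusted p = 0.0214).

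Genes that act where BTG/TOB proteins are known to act were mixed. Of 15 genes of cell cycle entry and its inhibitors, 4 rose and 8 fell at 2 h of LPS, when 71.5% of all genes changed, with a median of -0.14 against -0.02 over all genes. Ccnd2, a D-type cyclin, rose by 2.84 at 2 h (adjusted p = 4.95e-25) and Ccnd1 fell by 0.89 (adjusted p = 3.72e-07). Of 12 proliferation genes, 1 rose and 4 fell at 2 h, beside the same 71.5%. Of 13 tested p53 targets, the class Btg2 also belongs to, 2 rose at 0.5 h, 2 rose and 4 fell at 1 h, and 3 rose and 7 fell at 2 h, beside 11.6%, 46.8%, and 71.5% of all genes. Cdkn1a, the cell cycle inhibitor p21, rose by 0.72, 1.72, and 2.01 at the 3 times (adjusted p = 1.89e-10, 2.37e-26, and 1.49e-27), and Mdm2 rose by 0.59, 1.55, and 0.28 (adjusted p = 7.15e-12, 2.16e-30, and 1.34e-04). Of 10 immediate early genes of SRF and the TCFs, 9 rose at 0.5 h and 10 at 1 h, with medians of 2.52 and 2.13, beside 11.6% and 46.8% of all genes.

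Loss of TPL-2 kinase activity was next compared with WT. Without LPS, 0 of the 5 genes differed by limma, in a comparison in which 1.44% of genes changed, and 0 of 5 had an unadjusted p below 0.05, beside 11.9% of all genes. At 0.5 h, 2 of 5 were lower in Map3k8[D270A] cells, with 1.37% of genes changed. At 1 h, 3 of 5 were lower, with 9.79% of genes changed, and at 2 h 2 were lower and 1 higher, with 27.7% of genes changed. Btg2 was lower at all 3 LPS times. At 2 h the summed level of 4 glia markers, mostly Mbp, was 10.24 to 10.36 in the mutant and 10.75 to 10.86 in WT. In WT at 1 h it was 10.24 to 10.35. Its part in the values below was not tested.

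Btg2 in Map3k8[D270A] cells was 10.32 to 10.69 without LPS (median 10.48), overlapping WT. It was 12.20 to 12.36 at 0.5 h (median 12.32), 11.17 to 11.39 at 1 h (median 11.27), and 9.45 to 9.80 at 2 h (median 9.60). At each LPS time every mutant library lay below every WT one. The difference from WT was -1.05 at 0.5 h (SE 0.06, adjusted p = 4.39e-20), the 18th largest of all genes, -0.997 at 1 h (adjusted p = 7.56e-19), and -0.38 at 2 h (adjusted p = 9.20e-06). The libraries were also split by replicate number, a split that the labels do not name as a batch. Over 11884 genes, the difference between WT 4 to 6 and WT 7 to 9 and that between mutant 1 to 3 and mutant 4 to 6 had Pearson's r of 0.57 to 0.66 at the 4 times, a description across genes. At 2 h the second set holds 1 WT library, replicate 7, so its values at 2 h against WT are given without a test. Within the first set of replicates (WT 4 to 6, mutant 1 to 3) these were -0.84, -1.0001, and -0.51, and within the second (WT 7 to 9, mutant 4 to 6) -1.26, -0.99, and -0.22.

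Btg2 still rose in the mutant, by 1.80 at 0.5 h and 0.77 at 1 h. These log2 responses were 63.0% and 43.6% of those in WT. The response to LPS differed from that of WT by -1.06 at 0.5 h (adjusted p = 9.87e-14) and by -1.0001 at 1 h (adjusted p = 8.21e-13), in tests in which 0.109% and 2.02% of genes differed. Within the first and second sets of replicates it differed by -0.92 and -1.19 at 0.5 h, and by -1.08 and -0.92 at 1 h. At 2 h the difference was -0.39 (adjusted p = 0.00128, 15.5% of genes), with -0.58 in the first set of replicates and -0.15 in the second, with its 1 WT library. Of the 5 genes, Btg2 alone passed this test at 0.5 h.

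Btg1 was lower in Map3k8[D270A] cells from 1 h on. Its mutant libraries held 13.12 to 13.43 at 1 h (median 13.32) and 12.10 to 12.59 at 2 h (median 12.26). All of them lay below the WT libraries of the same time. The difference was -0.04 at 0.5 h (95% confidence interval -0.19 to 0.11), -0.48 at 1 h (SE 0.08, adjusted p = 3.49e-06), and -0.68 at 2 h (adjusted p = 3.88e-09). It was -0.52 and -0.44 in the 2 sets of replicates at 1 h, and -0.87 and, against 1 WT library, -0.49 at 2 h. The response to LPS differed from WT by -0.52 at 1 h (adjusted p = 0.00118) and by -0.72 at 2 h (adjusted p = 2.82e-06). Within the second set alone these differences were -0.51 (adjusted p = 0.103) and, with 1 WT library at 2 h, -0.55. At 2 h Btg1 was -0.21 from unstimulated mutant cells (adjusted p = 0.0105), a call lost without mutant replicate 1 (-0.16, adjusted p = 0.0786). That value was -0.35 in the first set of replicates, -0.07 in the second (adjusted p = 0.562), and -0.58 with quantile normalization (adjusted p = 7.45e-10). In WT the difference from unstimulated cells at 2 h was 0.51, and 0.09 with quantile normalization (adjusted p = 0.320).

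The TOB genes differed less. Tob2 was 9.93 to 10.00 in mutant libraries at 0.5 h and 9.89 to 10.00 at 1 h, below WT without overlap. The differences were -0.23 (adjusted p = 0.00110) and -0.17 (adjusted p = 0.00981). At 0.5 h they were -0.18 (adjusted p = 0.134) and -0.28 in the sets of replicates, at 1 h -0.21 and -0.13 (adjusted p = 0.314), and without WT replicate 6 the call at 1 h was lost (-0.15, adjusted p = 0.0530). Tob1 was 0.20 higher in the mutant at 2 h (adjusted p = 0.0169), but its groups overlapped, and the call was lost without WT replicate 4 (0.17, adjusted p = 0.100), WT replicate 6 (0.19, adjusted p = 0.0540), or mutant replicate 5 (0.16, adjusted p = 0.0708), and in the first set of replicates it was 0.10 (adjusted p = 0.271). Tob2 at 2 h was -0.12 from WT (adjusted p = 0.0668), and was called without mutant replicate 4 (-0.16, adjusted p = 0.0144) or 5 (-0.14, adjusted p = 0.0461) and in the first set of replicates (-0.21, adjusted p = 0.00836). Its LPS response at 2 h differed from WT by -0.12 (adjusted p = 0.293), and by -0.26 in the first set (adjusted p = 0.0256). WT at 2 h holds 3 libraries of the first set and 1 of the second, against 3 and 3 in the mutant. Btg3 had no call, with 95% confidence intervals of -0.63 to 0.05, -0.58 to 0.10, and -0.44 to 0.32 at 0.5, 1, and 2 h. At 2 h its 2 sets of replicates went apart, at -0.49 (adjusted p = 0.107) and 0.88, the second against a single WT library, replicate 7, whose Btg3 was the lowest of its group.

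**Figure D2:**
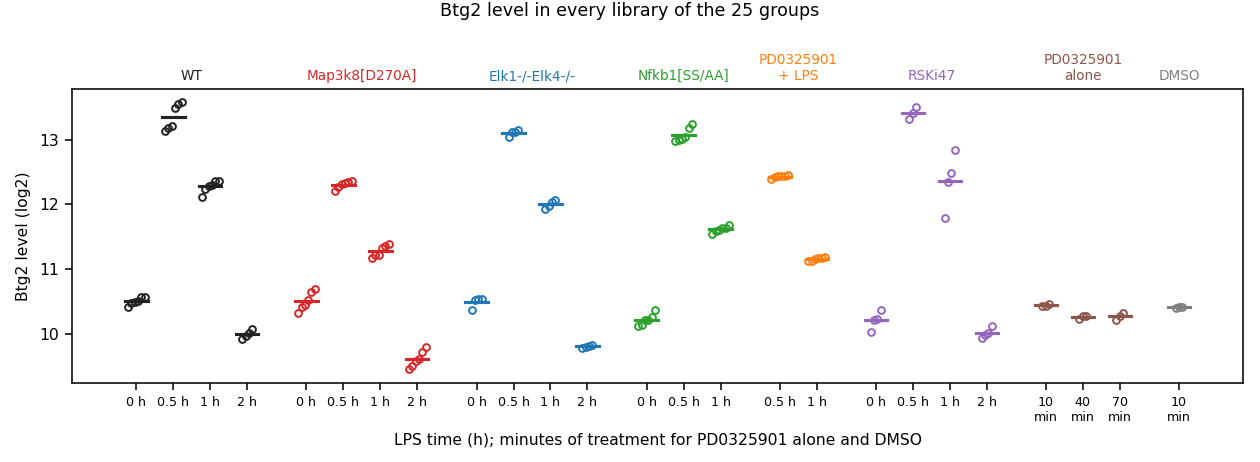
Deposited log2 value of Btg2 (vertical axis) in every library of the 25 groups (horizontal axis, by genotype or inhibitor and time). Points are libraries and bars are group means: the LPS libraries of Map3k8[D270A] and PD0325901 lie below those of WT at the same time.

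Elk1-/-Elk4-/- cells were compared with WT to ask which genes the TCFs control. The 5 tested neutrophil markers were higher at all 4 times, by a median of 3.64 to 4.38. At each of these times the summed level of 7 macrophage markers was lower than in WT without overlap (without LPS 18.29 to 18.39 against 18.55 to 18.75), and that of 4 B cell markers was higher (6.63 to 7.08 against 5.85 to 6.47). Lyz2 is the largest part of the macrophage sum, and the list was mixed. Lyz2 and Csf1r had their lowest group means in this arm (17.53 at 0.5 h, 14.90 without LPS), Adgre1 and Fcgr1 their highest (15.77 and 12.93 at 2 h). The sum of 4 glia markers, mostly Mbp, was below WT without overlap at 0, 1, and 2 h (at 2 h 10.27 to 10.40 against 10.75 to 10.86). The part of these markers in the values below was not tested. Of the family, 2 of 5 differed without LPS, beside 51.8% of all genes. After LPS it was 2 at 0.5 h (44.4% of all genes), 3 at 1 h (53.4%), and 4 at 2 h (50.8%).

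Btg2 rose after LPS in cells without ELK1 and ELK4. Its Elk1-/-Elk4-/- libraries held 13.15, 13.11, 13.04, and 13.12 at 0.5 h, and 12.04, 12.06, 11.97, and 11.94 at 1 h. At 0.5 h 3 of these libraries lay below the WT range of 13.14 to 13.58 and 1 at its lower end, and at 1 h all lay below all WT libraries. Btg2 was lower than in WT by -0.25 at 0.5 h (adjusted p = 0.00191), -0.28 at 1 h (adjusted p = 5.14e-04), and -0.19 at 2 h (adjusted p = 0.0281). The call at 2 h was lost without WT replicate 6 (-0.16, adjusted p = 0.0866), mutant replicate 2 (-0.18, adjusted p = 0.0630), or mutant replicate 3 (-0.18, adjusted p = 0.0550). The LPS response of Btg2 was 91.7% and 85.2% of the WT log2 response at 0.5 and 1 h, and its difference from WT, -0.24 and -0.26, had adjusted p values of 0.912 and 0.260. By limma, 0 of the 5 responses differed at either time, where 0.0589% and 1.35% of genes did. At an unadjusted p below 0.05 it was 1 and 3 of 5, beside 4.44% and 7.25% of all genes. Of the immediate early genes of SRF and the TCFs, 9 and 8 of 10 were lower at these times, with medians of -0.71 and -0.74, where 44.4% and 53.4% of all genes changed.

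At 2 h the other members differed more. Btg1 was 12.23, 12.44, 12.54, and 12.30 in Elk1-/-Elk4-/- cells, against 12.93 to 13.06 in WT, a difference of -0.60 (adjusted p = 2.62e-07). Tob2 was 9.42, 9.35, 9.04, and 9.39, against 9.90 to 9.95, a difference of -0.63 (adjusted p = 2.84e-13). Neither pair of groups overlapped. The LPS response differed from WT in 3 of 5 genes at 2 h, where 16.9% of genes differed: Tob2 by -0.70 (adjusted p = 1.35e-09), Btg1 by -0.52 (adjusted p = 0.00183), and Tob1 by -0.49 (adjusted p = 2.14e-04). Tob2 fell by 0.56 against unstimulated cells of its own genotype (adjusted p = 8.94e-13). In WT its difference from unstimulated cells at 2 h was 0.14, and 0.04 with quantile normalization (adjusted p = 0.476). With RSKi47 it was -0.28.

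Tob1 started higher in Elk1-/-Elk4-/- cells, at 8.72, 8.79, 8.89, and 8.67 without LPS against 8.28 to 8.40 in WT. It was 0.40 higher without LPS (adjusted p = 1.25e-06) and 0.26 higher at 0.5 h (adjusted p = 0.00106), while at 2 h the difference was -0.09 (95% confidence interval -0.23 to 0.06). Btg3 was 0.55 higher without LPS (adjusted p = 0.0133). Its difference of 0.51 at 2 h (adjusted p = 0.0376) lost the call without any of WT replicates 5 and 7 and mutant replicates 2, 3, and 4, with 0.25 to 0.51 (adjusted p = 0.0632 to 0.332). At 1 h Btg1 was lower by 0.30 (adjusted p = 0.00216), and Tob2 was lower by 0.14 (adjusted p = 0.0227), a call lost without WT replicate 6 (-0.11, adjusted p = 0.0766) or mutant replicate 4 (-0.13, adjusted p = 0.0589).

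In Nfkb1[SS/AA] cells 4 of the 5 genes already differed from WT without LPS, with 32.0% of genes changed, then 2 at 0.5 h (32.3%) and 3 at 1 h (42.5%). Btg2 was 10.11 to 10.36 without LPS (median 10.21), 12.97 to 13.24 at 0.5 h (median 13.02), and 11.55 to 11.67 at 1 h (median 11.62). At 0 and 1 h every one of these libraries was below WT. The difference was -0.29 without LPS (adjusted p = 5.25e-04), -0.28 at 0.5 h (adjusted p = 6.17e-04), and -0.66 at 1 h (adjusted p = 3.99e-14). The LPS response differed from WT at 1 h by -0.38 (adjusted p = 0.00579), where 6.07% of genes differed. At 0.5 h it was 2.86, and its difference from WT was 0.00 (95% confidence interval -0.19 to 0.20).

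Tob2 was 10.01 to 10.16 in unstimulated Nfkb1[SS/AA] cells, above all WT libraries, a difference of 0.28 (adjusted p = 1.43e-07). At 0.5 h its LPS response differed from that of WT by -0.29 (adjusted p = 0.00492), where 0.309% of genes differed. At 1 h the difference was -0.20 (adjusted p = 0.0319), which lost the call without WT replicate 4 or 6 or mutant replicate 2, 3, or 6 (-0.20 to -0.17, adjusted p = 0.0510 to 0.139). Btg1 was lower by 0.29 without LPS (adjusted p = 2.65e-04) and by 0.21 at 1 h (adjusted p = 0.00488). Its LPS response at 0.5 h was 0.91 against 0.58 in WT, a difference of 0.32 that had an adjusted p of 0.159, and of 0.00965 with replicates paired within the arm. Btg3 was higher by 0.51 at 1 h (adjusted p = 0.00452). Its call of 0.39 at 0.5 h (adjusted p = 0.0410) was lost without WT replicate 6 (0.29, adjusted p = 0.155) and without mutant replicate 1, 3, 4, or 6 (0.34 to 0.39, adjusted p = 0.0524 to 0.101). The call of Tob1 without LPS (0.14, adjusted p = 0.0434) was lost without any of 8 libraries, WT replicates 5, 6, 7, and 9 and mutant replicates 1, 3, 4, and 6 (0.12 to 0.15, adjusted p = 0.0514 to 0.105). Btg3 was 0.36 higher without LPS (adjusted p = 0.0606) and was called without WT replicate 4 (0.39, adjusted p = 0.0494) or mutant replicate 2 (0.45, adjusted p = 0.0226) or 5 (0.46, adjusted p = 0.0216). Of the neutrophil markers, 3 of 5 were higher at 1 h, beside 42.5% of all genes changed, and the summed level of the macrophage markers was above WT without overlap at 1 h (18.77 to 19.13 against 18.60 to 18.76) and, by less than 0.01, at 0.5 h. Lyz2, the largest part of that sum, and Cd68 had their highest group means in this arm at 1 h (18.52 and 15.50). Adgre1 and Itgam had their lowest in this arm (14.80 at 0.5 h, 13.96 without LPS). The part of these markers in these values was not tested.

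PD0325901 was used to ask which of these responses pass through MKK1/2 and ERK1/2. By limma, 0 of 5 genes were called between PD0325901 and DMSO at 10 min without LPS, where 0% of 11971 genes were called and 245, with 0 of the 5 among them, had an unadjusted p below 0.05. Btg2 was 10.42, 10.43, and 10.47 with the inhibitor and 10.42, 10.40, and 10.41 with DMSO, a difference of 0.03 (95% confidence interval -0.16 to 0.22). From 10 to 40 min (3.58% of genes) and from 10 to 70 min (6.09%) in PD0325901 alone it was 0 of 5, with 1 and 0 of 5 at an unadjusted p below 0.05, beside 14.6% and 17.1% of all genes. The DMSO libraries themselves differed from unstimulated WT in 3 of 5 genes, in a comparison in which 23.6% of genes changed. These were Btg1 (-0.26, adjusted p = 0.00960), Tob2 (0.21, adjusted p = 0.00262), and Tob1 (0.21, adjusted p = 0.0163), the last lost without DMSO replicate 1 or 2 (0.20, adjusted p = 0.0616 and 0.0651). The summed level of 8 neutrophil markers was 7.54 to 8.25 with DMSO and 6.36 to 7.19 in unstimulated WT. Its part in these values was not tested.

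With LPS, Btg2 was 12.40 to 12.45 at 0.5 h (median 12.43) and 11.13 to 11.18 at 1 h (median 11.16) in PD0325901-treated cells. None of these libraries reached the WT range, and those of Map3k8[D270A] cells were 12.20 to 12.36 and 11.17 to 11.39. Against WT with LPS the difference was -0.93 at 0.5 h (SE 0.07, adjusted p = 6.72e-21) and -1.12 at 1 h (adjusted p = 3.61e-26). Of the 5 genes, 2 were lower at 0.5 h (29.4% of genes changed) and 3 at 1 h (35.7%). Because the WT libraries lacked DMSO and belong to another experiment, the time in inhibitor was matched within the arm. Against PD0325901 alone, Btg2 rose by 2.18 at 0.5 h (adjusted p = 1.92e-42) and by 0.89 at 1 h (adjusted p = 1.33e-16). In these comparisons 3 and 2 of the 5 genes rose, with 14.9% and 43.6% of genes changed. The response of Btg2 differed from WT by -0.68 (adjusted p = 3.62e-06) and -0.89 (adjusted p = 3.39e-10), where 1.49% and 3.58% of genes differed.

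Tob2 passed the test at neither LPS time under PD0325901. It was 9.81 to 9.91 at 0.5 h of LPS, against 9.74, 9.78, and 9.83 after 40 min in inhibitor alone, and 9.96 to 10.09 at 1 h, against 9.93 to 10.00 after 70 min. The groups overlapped at both times, with differences of 0.07 (95% confidence interval -0.04 to 0.18) and 0.05 (-0.06 to 0.15). The response differed from WT by -0.36 (adjusted p = 3.09e-04) and -0.30 (adjusted p = 0.00213). Against WT with LPS, Tob2 was lower by 0.35 at 0.5 h (adjusted p = 2.21e-10). The difference of -0.12 at 1 h (adjusted p = 0.0274) lost the call without WT replicate 4 or 6 or PD0325901 replicate 1 or 2 (-0.11 to -0.09, adjusted p = 0.0539 to 0.107) and when PD0325901 replicates were averaged in pairs (adjusted p = 0.111).

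Btg1 rose after LPS under the inhibitor. It was 12.96 to 13.17 at 0.5 h and 13.43 to 13.66 at 1 h, against 12.31 to 12.34 and 12.18 to 12.26 in inhibitor alone. The rises were 0.76 (adjusted p = 1.55e-13) and 1.29 (adjusted p = 1.00e-27), and the differences of the response from WT were 0.18 (95% confidence interval -0.03 to 0.38) and -0.03 (-0.23 to 0.18). Its level at 1 h was 0.27 below WT with LPS (adjusted p = 5.70e-04), and its libraries in inhibitor alone held 12.18 to 12.34 against 12.29 to 12.68 in unstimulated WT. Tob1 rose by 0.41 at 0.5 h (adjusted p = 1.54e-06) and differed by 0.01 at 1 h (95% confidence interval -0.12 to 0.15). Its response differed from WT at 1 h by -0.29 (adjusted p = 0.0350), a call lost without any of WT replicates 4, 5, and 6 and PD0325901 replicates 1, 2, 3, 4, and 6 (-0.31 to -0.28, adjusted p = 0.0542 to 0.119) and when PD0325901 replicates were averaged in pairs (adjusted p = 0.104). Btg3 was called in none of these comparisons. Its rise at 1 h of LPS under the inhibitor was 0.41 (adjusted p = 0.0676), and was called with quantile normalization (0.56, adjusted p = 0.0120). In the same libraries the 5 tested neutrophil markers were higher than in WT with LPS by medians of 1.61 at both times, and 10 of 12 proliferation genes were higher at each time. Of the p53 targets, 10 of 13 were lower at 0.5 h, and 7 of 13 were lower and 1 higher at 1 h. Of all genes, 29.4% and 35.7% changed. The part of these in the values of the family was not tested.

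**Figure D3:**
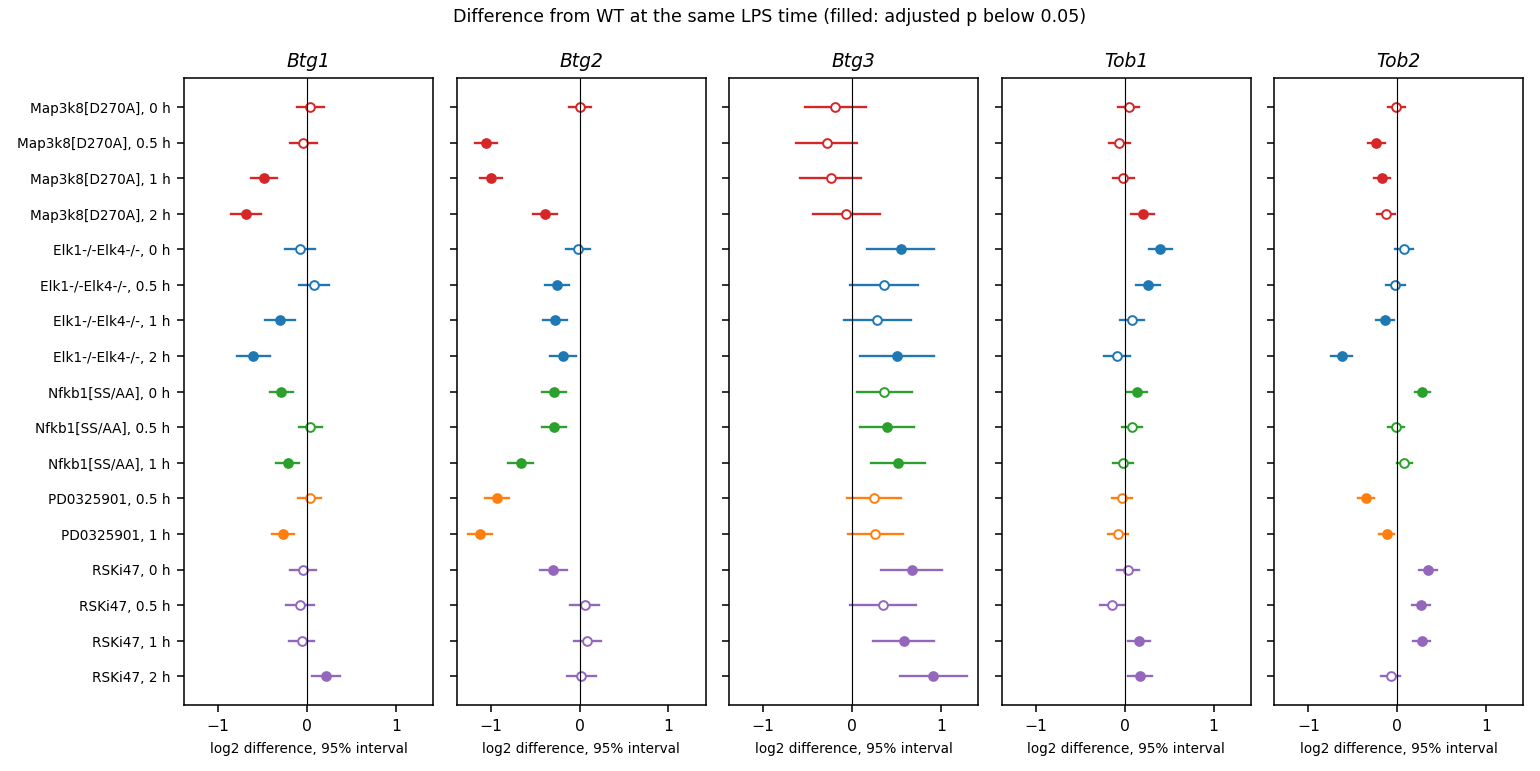
Difference from WT at the same time (horizontal axis, log2 units) for each of the 5 genes, 1 panel each, in each genotype or inhibitor and hours of LPS (vertical axis). Points are limma estimates, lines are 95% confidence intervals, and filled points have an adjusted p below 0.05: Btg2 is lowest, near -1, in Map3k8[D270A] and PD0325901 at 0.5 and 1 h.

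RSKi47 was used to ask whether RSK, a kinase downstream of ERK1/2, carries the response. Of the 5 genes, 3 differed from WT at 0 h (53% of genes changed), 1 at 0.5 h (48.2%), 3 at 1 h (52.8%), and 3 at 2 h (52.1%). The 2 tested fibroblast markers and 4 or 5 of the 5 tested neutrophil markers were also higher. The summed level of 4 B cell markers was below WT without overlap at 0, 0.5, and 2 h (without LPS 5.41 to 5.52 against 5.85 to 6.47), and that of T cell markers at 2 h (7.69 to 7.75 against 7.95 to 8.52). The T cell sum is nearly all Cd4, as every other marker of that list had group means below 0. The macrophage sum was above WT at 0.5 h, narrowly (18.674 to 18.772 against 18.487 to 18.672), and at 1 h (18.79 to 18.91 against 18.60 to 18.76). Csf1r and Mertk had their highest group means with RSKi47 (15.40 at 1 h, 10.90 at 0.5 h) and Fcgr1 its lowest (12.02 at 2 h). The sum of 4 glia markers was above WT without overlap at 0, 0.5, and 1 h, and below it at 2 h (10.41 to 10.50 against 10.75 to 10.86). The part of these markers in the values below was not tested.

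Btg2 differed from WT with RSKi47 without LPS, and was called at no LPS time. It was 10.21, 10.23, 10.36, and 10.02 without LPS, 13.41, 13.33, and 13.51 at 0.5 h, 12.84, 12.34, 12.49, and 11.79 at 1 h, and 9.94, 9.98, 10.01, and 10.13 at 2 h. At 1 h its 4 libraries spread over more than 1 log2 unit, on both sides of the WT libraries. The differences from WT were -0.30 without LPS (adjusted p = 6.37e-04), and 0.06, 0.09, and 0.02 at 0.5, 1, and 2 h, with 95% confidence intervals of -0.11 to 0.22, -0.07 to 0.24, and -0.15 to 0.19. Without RSKi47 replicate 4 the difference at 1 h was 0.28 (adjusted p = 3.44e-04). The LPS response differed from WT by 0.38 at 1 h (adjusted p = 0.0159), where 5.54% of genes differed, and by 0.32 at 2 h (adjusted p = 0.0327), where 21.0% did. The first was lost without RSKi47 replicate 1 (0.23, adjusted p = 0.314) or WT replicate 4 (0.35, adjusted p = 0.0532). The second was lost without RSKi47 replicate 4 (0.22, adjusted p = 0.118) or WT replicate 4, 5, or 7 (0.30 to 0.31, adjusted p = 0.0556 to 0.0602). At 0.5 h 0 of 5 responses differed by limma, where 0.0251% of genes did, and 1 of 5 had an unadjusted p below 0.05, beside 3.77% of all genes.

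Tob2 with RSKi47 was 10.08 to 10.18 without LPS, 10.41 to 10.53 at 0.5 h, and 10.27 to 10.63 at 1 h. It lay above all WT libraries at these times, by 0.35 (adjusted p = 2.74e-09), 0.27 (adjusted p = 1.77e-05), and 0.27 (adjusted p = 1.29e-06). At 2 h it was 9.78 to 9.92 and the difference was -0.07 (95% confidence interval -0.18 to 0.03). Its LPS response at 2 h differed from WT by -0.42 (adjusted p = 3.14e-06). Btg3 was higher with RSKi47 by 0.67 without LPS (adjusted p = 6.46e-04), 0.58 at 1 h (adjusted p = 0.00316), and 0.92 at 2 h (adjusted p = 2.36e-05). At 2 h it held 6.38, 6.40, 6.36, and 6.75, above the WT libraries. Btg1 was 13.14 to 13.27 at 2 h, 0.22 above WT (adjusted p = 0.0164), a call lost without RSKi47 replicate 3 (0.20, adjusted p = 0.0522). Tob1 was higher by 0.16 at 1 h (adjusted p = 0.0222), lost without RSKi47 replicate 1 (0.07, adjusted p = 0.401), and by 0.17 at 2 h (adjusted p = 0.0255), lost without RSKi47 replicate 1 or 4 or WT replicate 4 or 6 (0.13 to 0.17, adjusted p = 0.0574 to 0.136). At 0.5 h Tob1 was -0.14 from WT (adjusted p = 0.0823) and was called without WT replicate 9 (-0.17, adjusted p = 0.0402) or RSKi47 replicate 1 (-0.21, adjusted p = 0.0158).

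**Figure D4:**
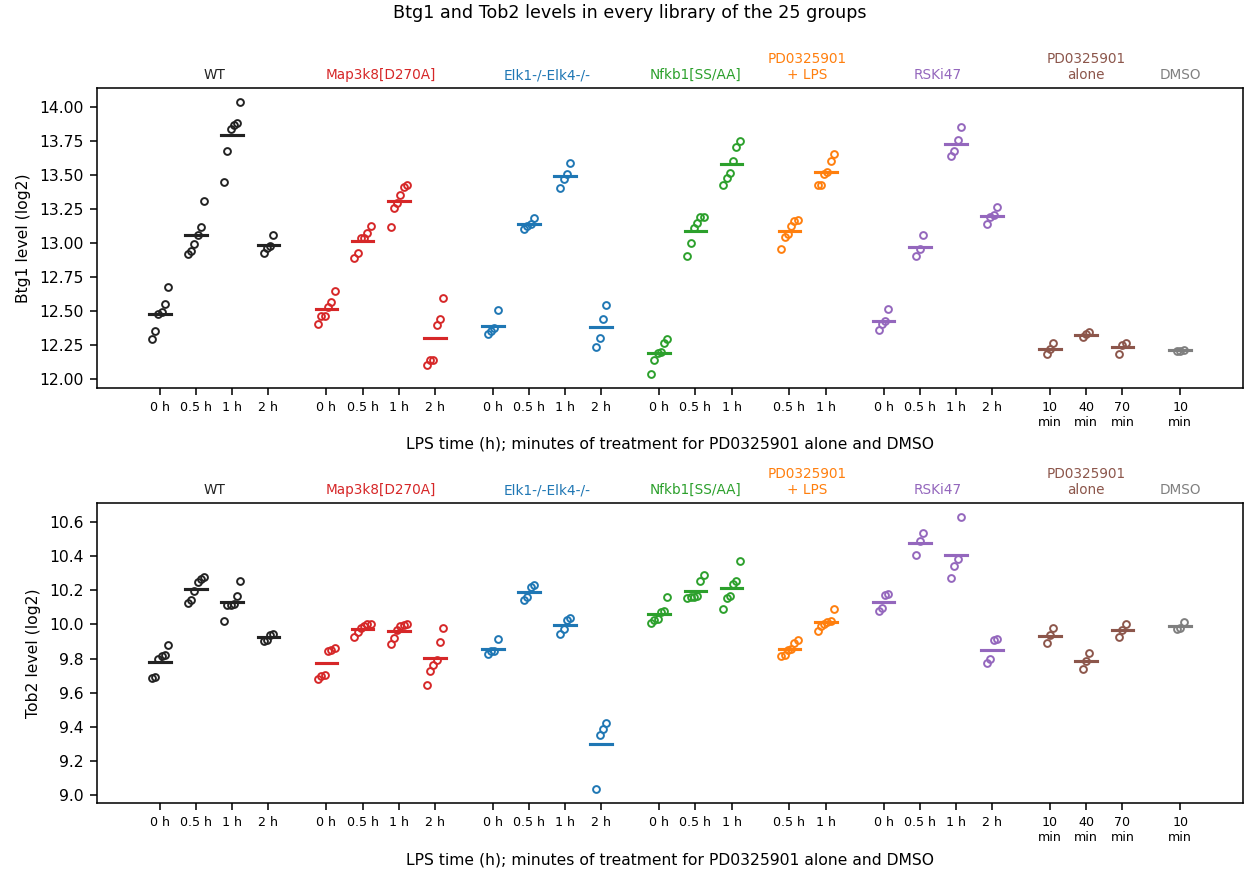
Deposited log2 value (vertical axis) of Btg1 and Tob2 in every library of the 25 groups (horizontal axis). Points are libraries and bars are group means: at 2 h of LPS both genes are lower in Elk1-/-Elk4-/- than in WT libraries, and Btg1 is also lower in Map3k8[D270A].

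The response to LPS within each arm was also taken for the members. In Map3k8[D270A] cells 4, 4, and 3 of 5 genes changed at 0.5, 1, and 2 h (5.08%, 41.9%, and 69.5% of genes), 11 calls of 15. In the first set of replicates alone there were 8 of 15 (3.76%, 43.9%, and 70.9% of genes at the 3 times), as the rises of Tob1 and Tob2 at 0.5 and 1 h lost the call (Tob1 at 1 h 0.08, against 0.41 in the second set). In the second there were 11 of 15 (3.53%, 30.2%, and 61.1%), but at 2 h Btg1 (-0.07) and Tob1 (-0.15, adjusted p = 0.0520, against -0.67 in the first set) lost the call, and Btg3 gained one (0.32, adjusted p = 0.0255), as it did without mutant replicate 1 (0.48, adjusted p = 0.0228). Tob2 at 2 h was called in both, in opposite directions, at -0.14 in the first set (adjusted p = 0.0432) and 0.19 in the second (adjusted p = 0.00815). In Elk1-/-Elk4-/- cells it was 4, 2, and 3 (4.96%, 33.3%, and 67.2%), and with RSKi47 4, 4, and 5 (5.10%, 29.0%, and 62.2%). In Nfkb1[SS/AA] cells it was 4 and 5 at 0.5 and 1 h (14.6% and 44.4%), and with quantile normalization Tob2 lost the call at 0.5 h (0.13, then 0.11, adjusted p = 0.0605) and at 1 h (0.15, then 0.09, adjusted p = 0.0899). The rise of Btg2 at 0.5 h was 1.80, 2.62, 3.21, and 2.86 in these arms in turn, and at 1 h 0.77, 1.51, 2.16, and 1.40. Btg2 was higher at 0.5 than at 1 h in every arm, and below its unstimulated level at 2 h in each arm measured there. With RSKi47 that fall was 0.19 on the log2 scale (adjusted p = 0.0399) and lost the call without replicate 1, 2, or 3 (adjusted p = 0.0936 to 0.220). With quantile normalization the difference was -0.30 (adjusted p = 8.01e-04). The rise of Btg1 at 1 h was 0.80, 1.105, 1.31, and 1.40. At 2 h Btg1 was 0.78 above unstimulated cells with RSKi47 (adjusted p = 3.80e-15) but -0.01 from them in Elk1-/-Elk4-/- cells (95% confidence interval -0.19 to 0.17). With quantile normalization the former was 0.47 (adjusted p = 9.50e-08) and the latter -0.41 (adjusted p = 8.92e-05). Calls of Tob1 at 0.5 h in Elk1-/-Elk4-/- cells and with RSKi47, of Tob1 and Btg3 at 1 h and Tob2 at 0.5 h in Nfkb1[SS/AA] cells, and of Btg3 at 2 h with RSKi47 were each lost without some 1 library (adjusted p = 0.0535 to 0.572).

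**Figure D5:**
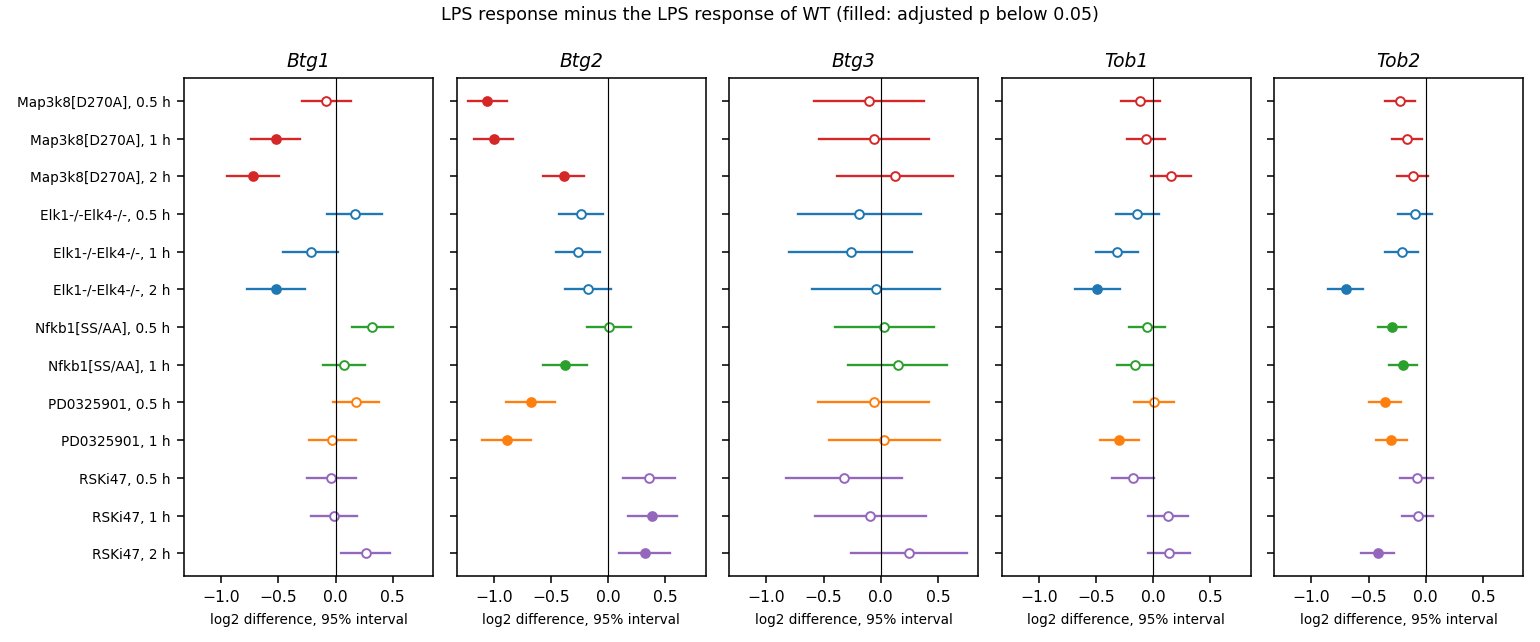
Difference of the LPS response from that of WT (horizontal axis, log2 units) for each of the 5 genes, 1 panel each, by genotype or inhibitor and hours of LPS (vertical axis). Points are limma interaction estimates, lines are 95% confidence intervals, and filled points have an adjusted p below 0.05: 19 of 65 estimates pass, 8 of them for Btg2 and 6 for Tob2. In these tests 0.0251% to 21.0% of all genes differed.

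Over the 17 comparisons of an arm with WT at 1 time, which share the WT libraries, Btg2 was lower in 12 and higher in 0. Btg1 was lower in 7 and higher in 1, and Tob2 lower in 6 and higher in 4. Btg3 was higher in 7 and Tob1 in 6, and neither was lower in any. From 1.37% to 53.4% of all genes were called in these comparisons. Over the 13 differences of the LPS response from WT, Btg2 was lower in 6 and higher in 2, Tob2 lower in 6, Btg1 in 3, Tob1 in 2, and Btg3 in none, where 0.0251% to 21.0% of all genes differed. Some of these calls, named above, were lost when 1 library was left out.

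Further calls turned with the settings of the fit. Without the filter on low values 5 calls were lost (adjusted p = 0.0566 to 0.0610). These were Btg3 in Elk1-/-Elk4-/- against WT at 2 h, Tob1 without LPS and Btg3 at 0.5 h in Nfkb1[SS/AA] against WT, and the LPS responses with RSKi47 of Tob1 at 0.5 h and Btg2 at 2 h. With each library centred on its median 5 were lost (adjusted p = 0.0560 to 0.0749). These were Tob1 in Nfkb1[SS/AA] without LPS, Tob1 with RSKi47 at 2 h, the LPS response of Tob1 at 0.5 h with RSKi47, and the differences of the response from WT of Tob2 at 1 h in Nfkb1[SS/AA] and of Btg2 at 2 h with RSKi47. With quantile normalization Tob1 was no longer called at 2 h in Map3k8[D270A] (0.16, adjusted p = 0.0543) or with RSKi47 (0.12, adjusted p = 0.120). That setting made calls for Btg3 at 1 h of LPS in WT (0.45, adjusted p = 0.0258), at 2 h of LPS in Map3k8[D270A] (0.38, adjusted p = 0.0490), and in Nfkb1[SS/AA] without LPS (0.38, adjusted p = 0.0499). It also called the fall of Tob2 from 0.5 to 1 h in WT (-0.08, then -0.14, adjusted p = 0.0104) and the difference of the Btg1 response at 2 h with RSKi47 (0.27, then 0.38, adjusted p = 0.00497). With all libraries in 1 fit Btg2 in Elk1-/-Elk4-/- against WT at 2 h was no longer called (adjusted p = 0.0506). The same fit called Btg3 at 1 h of LPS in WT and at 2 h in Map3k8[D270A], Tob2 in Map3k8[D270A] against WT at 2 h and at 1 h of LPS in Elk1-/-Elk4-/-, and the difference of the Tob1 response at 1 h in Elk1-/-Elk4-/- (adjusted p = 0.0339 to 0.0449). Tob2 at 1 h of LPS in Elk1-/-Elk4-/- (0.14, adjusted p = 0.0520) was called too with a mean-variance trend (adjusted p = 0.0493) and with replicates paired within the arm (adjusted p = 0.0389). Among WT libraries, Btg3 was called at 1 h in the second set of replicates (0.49, adjusted p = 0.00236) and at 2 h in the first (0.59, adjusted p = 0.0293), and Tob2 at 2 h was not called in the first (0.12, adjusted p = 0.0741). From 0.5 to 1 h the second set called Btg3 (0.33, adjusted p = 0.0479) and Tob2 (-0.18, adjusted p = 0.0340).

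Across the 25 group means Btg2 spanned 3.81 log2 units, Btg1 1.61, Btg3 1.33, Tob1 1.32, and Tob2 1.18. The median SD between replicates was 0.06 for Btg2, 0.09 for Btg1, 0.08 for Tob1, 0.05 for Tob2, and 0.20 for Btg3. Btg2 was highest with RSKi47 (13.42 ± 0.09 SD, n = 3) and in WT (13.36 ± 0.20 SD, n = 6) at 0.5 h, which did not differ beyond their spread, and lowest in Map3k8[D270A] cells at 2 h (9.61 ± 0.13 SD, n = 6). Btg1 was highest in WT (13.80 ± 0.20 SD, n = 6) and with RSKi47 (13.73 ± 0.09 SD, n = 4) at 1 h, which likewise overlapped. Tob1 was highest in Elk1-/-Elk4-/- cells at 0.5 h (9.04 ± 0.04 SD, n = 4), Tob2 with RSKi47 at 0.5 h (10.48 ± 0.06 SD, n = 3), and Btg3 with RSKi47 at 2 h (6.47 ± 0.18 SD, n = 4). For Tob2 and Btg3 these libraries overlapped those with RSKi47 at 1 h (10.41 ± 0.16 SD and 6.29 ± 0.20 SD, n = 4). The highest single library for Tob1 was RSKi47 replicate 1 at 1 h (9.13).

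Over the same 25 group means, which share LPS times and scaling, Pearson's r was 0.76 between Btg2 and Tob1, 0.69 between Btg2 and Tob2, 0.66 between Tob1 and Tob2, and 0.63 between Btg1 and Btg2, and at most 0.43 between Btg3 and any other member. The genes most like Btg2 among all tested were the immediate early genes Ier2 (r = 0.96), Jun (0.93), and Nr4a1 (0.92). For Btg1 they were Errfi1, a feedback inhibitor of the EGF receptor (0.94), the chemokine gene Cxcl2 (0.93), and the ERK phosphatase gene Dusp5 (0.93). Tob1 was closest to Cep120 (0.97), Cpeb2 (0.95), and Kctd13 (0.95), Tob2 to Csnk1e (0.85), Map2k7 (0.83), and Nr1d1 (0.82), and Btg3 to Trp53inp2 (0.91), Wwp2 (0.87), and Sil1 (0.86). Of the 10 SRF and TCF immediate early genes, 9 were lower in Map3k8[D270A] cells at 0.5 h (median -1.10, beside 1.37% of all genes changed) and 10 with PD0325901 (median -1.42, beside 29.4%).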

How the data were processed

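RNA-seq of BMDMs was analysed from a table of log2 values per gene that the authors deposited, 1 column per library. The submitters' processing notes name RSEM 1.2.29, STAR 2.5.1b, DESeq2 1.10.1, and mm10. The deposited log2 values run from -2.4036 to 19.8066, genes with no reads sit at differing negative constants, and no source used here gives the transformation. No counts were given, so the depth per library is unknown and no interval for counting error can be made. Reads were single-end and strand-specific, and libraries were biological replicates by the study's methods. One value of Fosb (57.7337), above 25, was set to missing.

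Groups came from the labels. Comparisons were made with limma 3.58.1 in R 4.3.3, with 1 mean per group and a shared spread. A first fit of 62 libraries held WT, Map3k8[D270A], and Elk1-/-Elk4-/-, and a fit of all 119 held the other comparisons. Genes with 2 raised to the value of at least 10 in at least 4 libraries (first fit) or 3 (all libraries) were tested. P-values were Benjamini-Hochberg adjusted over all genes tested, and calls made below 0.05. The model was tested on simulated data. Figures used matplotlib 3.10.9 in Python 3.11.15.

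The genes named are the 5 members in every comparison, the 3 genes most correlated with each over group means, and up to 4 members of each list. The members and lists were chosen with earlier results of these data known. Per-length levels divide by the RefSeq-matched GENCODE vM21 transcript. Marker lists for macrophages, T cells, B cells, neutrophils, fibroblasts, erythroid cells, and glia were also measured. Alternatives were no filter, a mean-variance trend, quantile normalization, median centring, leaving out each replicate, replicate blocks, replicate sets, all libraries in 1 fit, and averaged PD0325901 replicates. Same-numbered libraries of 1 arm deviated together at every pair of times in WT (lowest r 0.16) and Nfkb1[SS/AA] (lowest r 0.14), so those numbers pair LPS times within the arm. In Map3k8[D270A] and with RSKi47 every r was also above 0 (lowest 0.07 in each). In Elk1-/-Elk4-/- and PD0325901 some were below 0 (lowest -0.22 and -0.27). The main fit does not use this pairing, and replicate blocks within the arm were an alternative.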

Additional observations from a re-analysis of the deposited data

Results flagged for a closer look

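Of 100 groups of values of 1 gene, 6 held a library far from the rest, near the 1 in 20 that chance gives. They were Btg2 in Elk1-/-Elk4-/- replicate 3 without LPS (10.37, the others 10.52 to 10.54), Btg3 in WT replicate 6 at 0.5 h (4.98, the others 5.49 to 5.75), and Btg3 in Map3k8[D270A] replicate 3 without LPS (4.22, the others 5.24 to 5.47). Btg3 was also apart in Elk1-/-Elk4-/- replicate 3 without LPS (5.58, the others 5.96 to 6.01) and in RSKi47 replicate 4 at 2 h (6.75, the others 6.36 to 6.40). Tob1 was apart in RSKi47 replicate 1 at 1 h (9.13, the others 8.73 to 8.76).

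The LPS response differed from that of WT, by limma, in 19 cases, in tests in which 0.0251% to 21.0% of all genes differed. In Map3k8[D270A] cells Btg2 differed by -1.06, -1.0001, and -0.39 at 0.5, 1, and 2 h, and Btg1 by -0.52 and -0.72 at 1 and 2 h. In Elk1-/-Elk4-/- cells at 2 h Btg1 differed by -0.52, Tob1 by -0.49, and Tob2 by -0.70. In Nfkb1[SS/AA] cells Tob2 differed by -0.29 and -0.20 at 0.5 and 1 h, and Btg2 by -0.38 at 1 h. With PD0325901 Btg2 differed by -0.68 and -0.89, Tob2 by -0.36 and -0.30, and Tob1 by -0.29 at 1 h. With RSKi47 Btg2 differed by 0.38 and 0.32 at 1 and 2 h, and Tob2 by -0.42 at 2 h.

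The first set of replicates (WT 4 to 6 with Map3k8[D270A] 1 to 3) and the second (WT 7 to 9 with Map3k8[D270A] 4 to 6) differed in 2 of 25 tests at 0 to 1 h, where 0.109% to 1.24% of all genes did. The rise of Btg2 in WT at 0.5 h was 0.44 lower in the first set, a difference of -0.44 (limma, adjusted p = 2.08e-04, 0.884% of all genes). The difference of Map3k8[D270A] from WT in Btg2 was higher by 0.42 in the first set at 0.5 h (adjusted p = 6.81e-04, 0.791% of all genes). Both tests use the same WT libraries at 0.5 h, so they are not independent of each other. At 2 h the second set holds 1 WT library, so the values there, -0.29 from the second set in Btg2 and -1.37 in Btg3, carry no test.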

How the results depend on the processing

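Leaving out each replicate in turn kept the call in 2201 of 2290 values of single genes, and the other alternatives outside the replicate sets in 1582 of 1625. The sign turned in 74 and 12 of these, in none of which the value was called before or after. Within the replicate sets it turned in 17 of 150 values, 7 of them of Btg3 and none called over both sets. LPS at 2 h on Tob2 in Map3k8[D270A] cells was -0.14 in the first set and 0.19 in the second (0.03 over both). Against the single WT library of the second set at 2 h, replicate 7, LPS at 2 h on Btg3 in WT was -0.65 and Btg3 in Map3k8[D270A] against WT was 0.88, values with no test. At 0.5 and 1 h, 2 of 10 LPS responses differed from WT in the second set, where 0.651% and 1.04% of all genes did, and 3 of 10 in the first, beside 0.0674% and 3.2%. With 2 h the fits give 3 of 15 and 6 of 15, the former with that single library and so no test at 2 h. The causes were not tested.

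With the replicate number as a block shared by all arms, the calls numbered 18 of 25 for LPS in WT. Against WT they numbered 8 of 20 for Map3k8[D270A], 11 of 20 for Elk1-/-Elk4-/-, 9 of 15 for Nfkb1[SS/AA], and 11 of 20 for RSKi47. In the main fit 11.6% to 71.5% of all genes were called in the comparisons of LPS in WT. Against WT it was 1.37% to 27.7% for Map3k8[D270A] and 44.4% to 53.4% for Elk1-/-Elk4-/-. For Nfkb1[SS/AA] it was 32.0% to 42.5%, and for RSKi47 at least 48.2%. Numbers shared across arms do not pair the samples. With pairing within the arm, 21 of 65 differences of the LPS response were called in place of 19. In the main fit 0.0251% to 21.0% of all genes differed in these tests. The Btg1 response at 0.5 h in Nfkb1[SS/AA] cells and at 2 h with RSKi47 (0.28, adjusted p = 0.00928) gained a call. Without WT replicate 8 the latter was 0.30 (adjusted p = 0.0239).

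The depth of each library is unknown, the study's methods giving a typical yield only, and the log2 transformation is not stated, which limits the size of any difference, including those of Btg3, the lowest member. How far it limits each member was not measured. No pseudocount alternative was run, since the values were already on a log scale.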
